A study of Mus musculus with 10 samples.

Results

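The genes described here supply amino acids to the cell or respond to their shortage through the transcription factor ATF4. There are 10 of them among the 18194 gene symbols that have a probe set of their own on the array: Asns, Phgdh, Psat1 and Psph, which make amino acids; Slc7a5, Slc3a2 and Slc1a5, which import them; and Atf4, Trib3 and Ddit3, which belong to the stress response. They were listed by function, and the group was taken up because Asns differed between 2 lines of mice, so every value of that contrast is given as a description with no test. Each gene is represented by the probe set that names it alone and has the highest mean over the 10 arrays, and all 10 genes were among the 17204 that passed the filter on low values.

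The arrays measured sorted splenic B cells of the Balb/c background in 3 groups. Germinal centre (GC) B cells came from B1-8 mice (VH186.2-Tg JH KO, n = 3) and from V23 mice (V23-Tg JH KO, n = 3), which carry a heavy chain transgene and a targeted deletion of the endogenous JH locus; on day 14 after an injection of NP-CGG (50 µg, in alum), a hapten coupled to a carrier protein, the λ+ PNA+ B220+ fraction was sorted. Naive B cells came from unimmunized Balb/c mice (n = 4), with no transgene named in the labels. GC and naive cells therefore differ in immunization, transgene and sorting stain, which cannot be told apart. The labels do not tie replicates to individual mice, so the p-values measure the spread between these samples, which may be technical. Each transgene fixes 1 heavy chain in the B cells that use it.

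When an amino acid runs short, uncharged tRNAs activate the kinase GCN2, which phosphorylates the initiation factor eIF2 alpha; general translation falls while the ATF4 message is translated more efficiently. ATF4 then raises transcription of amino acid transporters and of the enzymes for asparagine and serine synthesis, and under prolonged stress of Ddit3, whose product CHOP can promote cell death. Activated lymphocytes take up and make more amino acids as they grow and divide, and mTORC1 signalling can raise ATF4 in them without shortage.

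Signals are log2 values as deposited, and differences are log2 differences between group means with their standard error (SE) from 1 limma model of all 10 arrays; a gene was called at a Benjamini-Hochberg adjusted p under 0.05 over all tested genes. Of the B cell markers, Cd79a, Cd79b, Ms4a1, Pax5 and Ptprc were measured, with list means of 13.38 to 13.57 on naive, 12.98 to 13.27 on B1-8 and 12.72 to 13.06 on V23 arrays, with Cd79a and Pax5 lower in GC cells, and all 5 measured GC markers (Bcl6, S1pr2, Fas, Mybl1 and Gcsam) were higher on every GC array than on every naive array. Other quantities moved with the groups as well. All 5 measured markers of dividing cells rose, with list means of 8.64 to 10.05 on naive, 11.81 to 12.01 on B1-8 and 12.17 to 12.25 on V23 arrays. All 8 neutrophil markers rose, from 7.66 to 9.82 on naive arrays to between 11.73 and 11.96 on B1-8 and between 11.20 and 11.92 on V23 arrays, and 3 of the 8 were higher on every B1-8 than on every V23 array. Macrophage markers (5 tested) had list means of 7.73 to 8.74, 7.64 to 7.97 and 7.16 to 7.50 in the same order of groups. T cell markers had list means of 6.90 to 7.77, 6.88 to 7.48 and 6.41 to 6.95; Cd3d and Cd3g of the 5 measured fell in V23 cells, and the median of B1-8 minus V23 was 0.67, with the lines overlapping on all 5. Of 6 plasma cell markers, Jchain (2.44) and Xbp1 (0.28) rose and Irf4 fell by 1.91 in the mean of both lines over naive. Naive replicates 2 and 4 stood apart, with GC marker means of 9.80 and 9.01 beside 8.08 and 8.24 on the other naive arrays. Their division marker means were 10.05 and 9.37 beside 8.64 and 8.91. Without both, the counts of members that rose were 5 in B1-8, 7 in V23 and 7 in the mean of both lines. With all arrays these counts were 6, 8 and 8. Counts over all tested genes moved with the settings too. In the main fit 2828, 3127 and 3521 genes rose in the same order. Under the alternative settings run, they ranged from 2233 to 3215, 2587 to 3824 and 3044 to 4165. How far the member counts followed those of all genes was not tested. The 3′ minus 5′ difference of the Actb control probe sets, a measure of RNA quality, was 1.27 to 1.65 on naive, 0.81 to 1.19 on B1-8 and 0.71 to 0.87 on V23 arrays. The part of these quantities in the results below was not tested, and since the samples are bulk RNA, a change in RNA per cell and a change in the share of expressing cells cannot be told apart.

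Asns, which makes asparagine from aspartate and glutamine, stepped up from naive to B1-8 to V23 cells. Probe set 1451095_at read 8.89, 9.08, 8.85 and 8.88 on the naive arrays, 10.07, 10.14 and 10.04 on the B1-8 arrays and 11.19, 11.12 and 11.36 on the V23 arrays. No array of one group reached into the range of another. Asns rose by 1.16 ± 0.10 (SE) in B1-8 cells over naive (limma adjusted p = 5.48e-05), which is 2.23-fold, and by 2.30 ± 0.10 in V23 cells (adjusted p = 2.32e-06), which is 4.92-fold. V23 lay 1.14 ± 0.10 above B1-8, or 2.20-fold, and this is the difference for which the group of genes was taken up. The GC values of Asns thus entered that choice, and its p-values against naive use the same values, so they are not free of it.

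**Figure D1:**
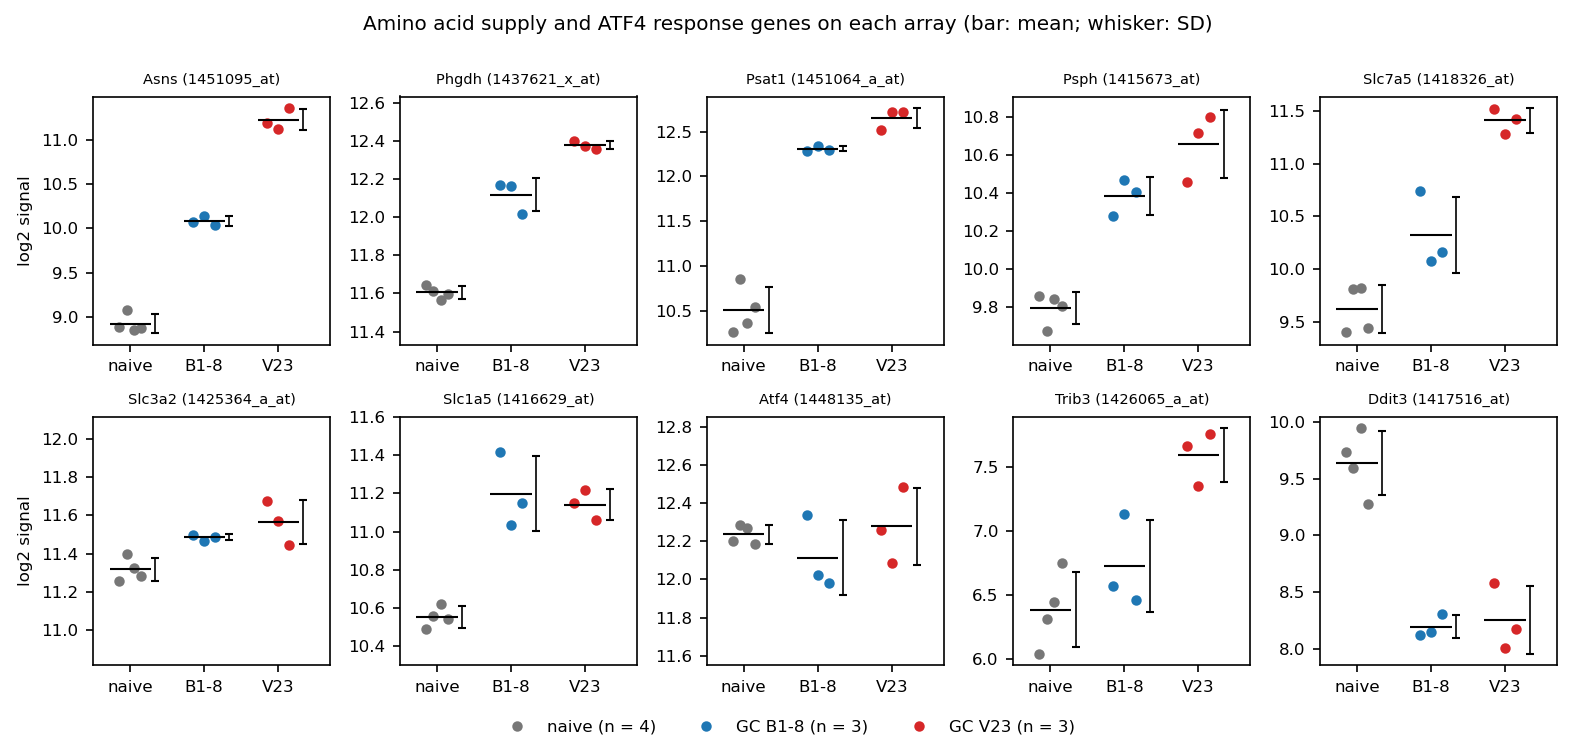
Log2 signal (y axis) of the 10 genes on each array, by group (x axis: 4 naive, 3 GC B1-8 and 3 GC V23 arrays); points are arrays, bars are group means and whiskers are SDs. Asns and Slc7a5 step up from naive to B1-8 to V23, Ddit3 is lower on every GC array than on every naive array, and the Atf4 groups overlap.

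The Asns promoter is shown because ATF4 is known to act on Asns through an element near its start, and because Asns is the gene on which the group was chosen. RefSeq promoter windows on GRCm38.p6 (250 bases before to 50 after an annotated start) were searched on both strands for TGATGNAA, the core of the C/EBP-ATF response element. In the stretches below, all written 5′ to 3′ along the gene's strand and ending at the base before the annotated start, capitals mark a match. Psat1 is shown beside Asns as a gene that rose in both lines (mean of both over naive 1.98 ± 0.12, adjusted p = 6.32e-06), and Ddit3 as the one that fell.
Asns, chr6:7693210-7693459, minus strand: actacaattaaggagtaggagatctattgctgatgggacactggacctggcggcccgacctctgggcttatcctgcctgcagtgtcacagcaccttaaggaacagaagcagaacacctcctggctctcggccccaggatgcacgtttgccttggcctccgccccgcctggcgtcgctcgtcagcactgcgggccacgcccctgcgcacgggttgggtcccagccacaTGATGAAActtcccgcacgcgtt
Psat1, chr19:15925060-15925309, minus strand: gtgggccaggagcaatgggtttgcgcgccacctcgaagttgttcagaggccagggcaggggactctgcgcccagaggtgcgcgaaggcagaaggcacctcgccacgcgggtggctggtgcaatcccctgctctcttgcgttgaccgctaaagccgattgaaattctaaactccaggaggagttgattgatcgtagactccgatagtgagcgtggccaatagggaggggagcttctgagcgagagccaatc
Ddit3, chr10:127290543-127290792, plus strand: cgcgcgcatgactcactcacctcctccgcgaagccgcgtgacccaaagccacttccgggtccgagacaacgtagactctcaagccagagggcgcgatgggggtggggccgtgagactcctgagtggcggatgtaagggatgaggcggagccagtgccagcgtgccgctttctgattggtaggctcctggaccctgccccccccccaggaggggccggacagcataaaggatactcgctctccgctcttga

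In Asns the match lies at positions -23 to -16 from the start. Of the 8 genes with a window in the table (9 windows, Psat1 having 2), Asns and Trib3 hold a match, and 3.97% of all 32851 windows do. The Trib3 match is on the opposite strand and lies just inside the transcript, at positions 15 to 22 after the start, and is printed with 8 bases on each side.
Trib3, chr2:152344031-152344054, minus strand: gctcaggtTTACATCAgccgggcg

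A match is a run of letters and not a measured site, and the arrays carry no binding data. Sequence outside these windows was not searched, so a gene without a match here may hold one elsewhere.

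The enzymes of the serine pathway convert a glycolytic intermediate to serine in 3 steps catalysed by PHGDH, PSAT1 and PSPH, and all 3 genes rose in both lines. Psat1, the aminotransferase, read 10.26, 10.85, 10.36 and 10.54 on the naive arrays, 12.29, 12.34 and 12.30 on the B1-8 arrays and 12.52, 12.72 and 12.72 on the V23 arrays. The groups did not overlap, and the step from naive to GC was larger than the step between the lines. Psat1 rose by 1.80 ± 0.14 in B1-8 cells (adjusted p = 4.19e-05) and by 2.15 ± 0.14 in V23 cells (adjusted p = 1.4e-05), that is 3.49-fold and 4.44-fold over naive.

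Phgdh, the dehydrogenase of the first step, read 11.65, 11.61, 11.57 and 11.60 on the naive arrays, 12.17, 12.16 and 12.02 on the B1-8 arrays and 12.40, 12.37 and 12.36 on the V23 arrays. The V23 arrays agreed closely and lay above every B1-8 array. Phgdh rose by 0.51 ± 0.08 in B1-8 (adjusted p = 0.00105) and by 0.77 ± 0.08 in V23 cells (adjusted p = 9.11e-05). All its single-symbol probe sets are of the _x_at kind, which can share sequence with other genes. Psph, the phosphatase of the last step, read 9.86, 9.68, 9.85 and 9.81 on the naive arrays, 10.28, 10.47 and 10.40 on the B1-8 arrays and 10.45, 10.72 and 10.80 on the V23 arrays. Both lines lay above all naive arrays and overlapped each other at 1 V23 array. Psph rose by 0.59 ± 0.11 (adjusted p = 0.00309) and 0.86 ± 0.11 (adjusted p = 0.000329) in B1-8 and V23 cells.

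Of the importers, Slc7a5 differed most from naive. It encodes LAT1, which brings in leucine and other large neutral amino acids. Slc7a5 read 9.40, 9.81, 9.82 and 9.43 on the naive arrays, 10.74, 10.07 and 10.16 on the B1-8 arrays and 11.53, 11.29 and 11.43 on the V23 arrays. The groups did not overlap, although B1-8 replicate 1 stood above the other B1-8 arrays. Slc7a5 rose by 1.80 ± 0.19 in V23 cells (adjusted p = 0.00012), or 3.47-fold. The rise of 0.71 ± 0.19 in B1-8 cells (adjusted p = 0.0191) is less secure: leaving out B1-8 replicate 1 gave 0.50 (adjusted p = 0.0534), leaving out naive replicate 1 gave 0.63 (0.0509), and leaving out naive replicates 2 and 4 together gave 0.71 (0.0702). V23 lay 1.09 ± 0.20 above B1-8, or 2.13-fold.

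Slc3a2 encodes the CD98 heavy chain, the partner that brings LAT1 to the cell surface, and it moved far less than Slc7a5. It read 11.26, 11.40, 11.33 and 11.28 on the naive arrays, 11.50, 11.47 and 11.49 on the B1-8 arrays and 11.68, 11.57 and 11.45 on the V23 arrays. Every GC array lay above every naive array, by a small margin, and the lines overlapped. Slc3a2 was at 0.17 ± 0.08 in B1-8 against naive (adjusted p = 0.169) and rose by 0.25 ± 0.08 in V23 (adjusted p = 0.0471), a call lost in 16 of 20 alternatives. Slc1a5 encodes ASCT2, an importer of glutamine and other neutral amino acids. Slc1a5 read 10.49, 10.56, 10.62 and 10.54 on the naive arrays, 11.42, 11.03 and 11.15 on the B1-8 arrays and 11.15, 11.22 and 11.06 on the V23 arrays. GC arrays lay above naive arrays and the lines overlapped. Slc1a5 rose by 0.65 ± 0.11 in B1-8 (adjusted p = 0.00173) and 0.59 ± 0.11 in V23 cells (adjusted p = 0.00239); its other probe set (1440379_at) went down, from 8.41 ± 0.10 (SD) in naive to 7.93 ± 0.46 in B1-8 and 6.82 ± 0.96 in V23 cells.

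The message of Atf4 itself did not pass the test in either line. It read 12.20, 12.29, 12.27 and 12.19 on the naive arrays, 12.34, 12.02 and 11.98 on the B1-8 arrays and 12.26, 12.09 and 12.49 on the V23 arrays. All 3 groups overlapped, and the GC arrays were more spread than the naive arrays. Atf4 was at -0.12 ± 0.13 in B1-8 (adjusted p = 0.509) and 0.04 ± 0.13 in V23 (adjusted p = 0.83) against naive, with 95% intervals of -0.41 to 0.16 and -0.25 to 0.33. ATF4 is controlled largely at translation, which arrays do not measure.

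Trib3 and Ddit3, genes that ATF4 can induce, went different ways. Trib3, a pseudokinase that dampens the response, read 6.05, 6.31, 6.45 and 6.75 on the naive arrays, 6.57, 7.13 and 6.47 on the B1-8 arrays and 7.66, 7.35 and 7.75 on the V23 arrays. The V23 arrays stood above all others, and B1-8 overlapped naive. Trib3 rose by 1.20 ± 0.21 in V23 cells (adjusted p = 0.00225) and was at 0.34 ± 0.21 in B1-8 cells (adjusted p = 0.276). Its other probe set (1456225_x_at) did not show the rise over naive, at 7.16 ± 0.23 (SD) in naive, 5.53 ± 1.18 in B1-8 and 7.01 ± 0.47 in V23 cells.

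Ddit3 was the member that fell. It read 9.73, 9.60, 9.94 and 9.28 on the naive arrays, 8.13, 8.15 and 8.31 on the B1-8 arrays and 8.58, 8.01 and 8.18 on the V23 arrays. Every GC array lay below every naive array, and the lines overlapped. Ddit3 fell by 1.44 ± 0.18 in B1-8 cells (adjusted p = 0.000457), to a 2.71-fold lower level, and by 1.38 ± 0.18 in V23 cells (adjusted p = 0.000456), to a 2.60-fold lower level. Its other probe set (1443897_at) was also lower on every GC array, at 8.38 ± 0.49 (SD) in naive, 5.81 ± 0.98 in B1-8 and 4.99 ± 1.91 in V23 cells.

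Counted together, 6 of the 10 genes rose and 1 fell in B1-8 cells, where 33.7% of all tested genes were called, 16.4% as higher and 17.3% as lower. In V23 cells 8 rose and 1 fell, beside 37.9% of all tested genes, 18.2% higher and 19.7% lower. Asns, on which the group was chosen, is counted among the genes that rose in each line. Every B1-8 array lay above every naive array in 7 of the 10 and below in 1, beside 21.2% and 21.1% of all genes (42.4% in all). For V23 these were 8 and 1, beside 21.8% and 22.6% (44.4% in all), and for the 6 GC arrays together 7 and 1, beside 17.0% and 18.5% (35.5% in all). The median difference of the 10 was 0.55 in B1-8 and 0.81 in V23 cells, beside 0.05 and 0.06 over all tested genes. Both comparisons use the same 4 naive arrays. For the mean of both GC groups 8 rose and 1 fell, beside 20.5% and 21.0% of all genes (41.5% in all); averaging the probe sets of a gene left 5 that rose, as Slc1a5, Slc3a2 and Trib3 were no longer called.

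**Figure D2:**
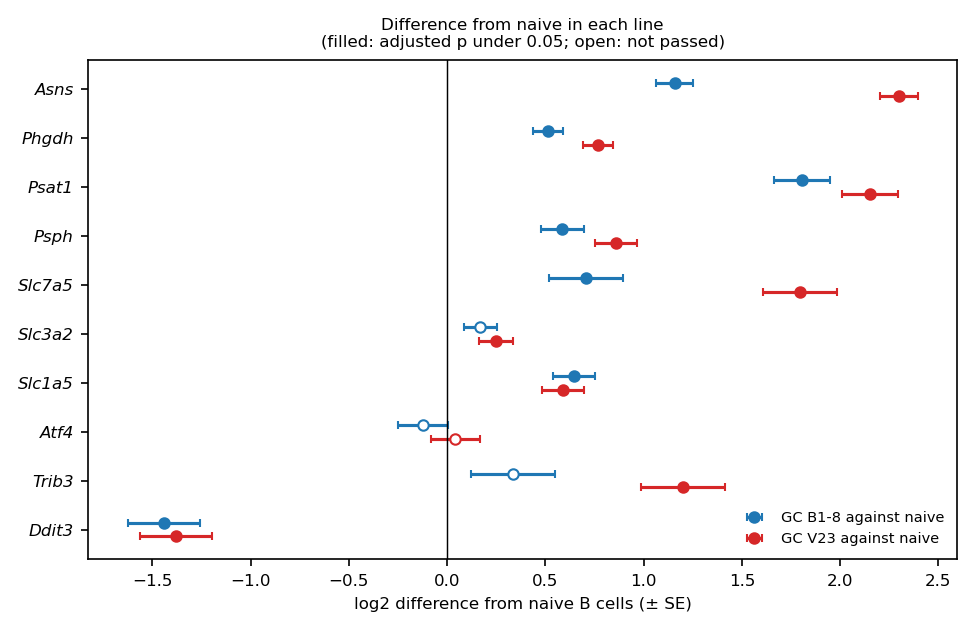
Log2 difference from naive B cells (x axis, ± SE from the limma model) of each gene (y axis) in GC B1-8 (blue) and GC V23 (red); filled points passed the adjusted p threshold of 0.05. Asns differs from naive by 1.16 in B1-8 and 2.30 in V23, while Slc1a5 and Ddit3 lie at nearly equal values in both lines.

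Between the lines, V23 arrays read above all B1-8 arrays in 5 of the 10 genes, namely Asns, Phgdh, Psat1, Slc7a5 and Trib3. The groups did not overlap in this direction in 6.63% of all tested genes and in the opposite direction in 7.07% (13.7% in all); since Asns was chosen on this contrast, nothing is read from the count. The differences (V23 minus B1-8) were 1.14 for Asns, 1.09 for Slc7a5, 0.87 for Trib3, 0.35 for Psat1 and 0.26 for Phgdh. The other 5 genes overlapped, at 0.27 for Psph, 0.16 for Atf4, 0.08 for Slc3a2, 0.06 for Ddit3 and -0.06 for Slc1a5, with SEs between 0.09 and 0.20. Markers of dividing cells moved in the same direction: 4 of 5 were higher on every V23 than on every B1-8 array, with Plk1 at 0.47, Aurka at 0.39, Cdk1 at 0.23 and Top2a at 0.14 (V23 minus B1-8). Plasma cell markers did not separate the lines: all 6 overlapped, with Sdc1 at 6.28 ± 1.06 (SD) and 5.72 ± 0.69 and Prdm1 at 7.39 ± 0.16 and 7.23 ± 0.32 in B1-8 and V23 cells. The part of cell division in the line differences was not tested.

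The 10 genes have 20 single-symbol probe sets in all, and 7 genes have more than 1. The second Asns probe set (1433966_x_at) read 7.71 ± 0.07 (SD) in naive, 9.65 ± 0.17 in B1-8 and 10.99 ± 0.34 in V23 cells, a line difference of 1.34. The second Psat1 probe set separated the lines by 0.42, and the other 3 of Phgdh by 0.34 to 0.68, with overlap in the dimmest of them. Where the probe sets of a gene disagree in sign between the lines, as in Atf4 (0.16, 0.32 and -0.58) and Ddit3 (0.06 and -0.82), the lines overlapped on every one of them. The Atf4 probe set at -0.58 (1439258_at) was dim, with group means below the log2 4 of the filter. It read 1.87 ± 0.19 (SD) in naive, 3.44 ± 1.25 in B1-8 and 2.86 ± 0.43 in V23 cells.

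**Figure D3:**
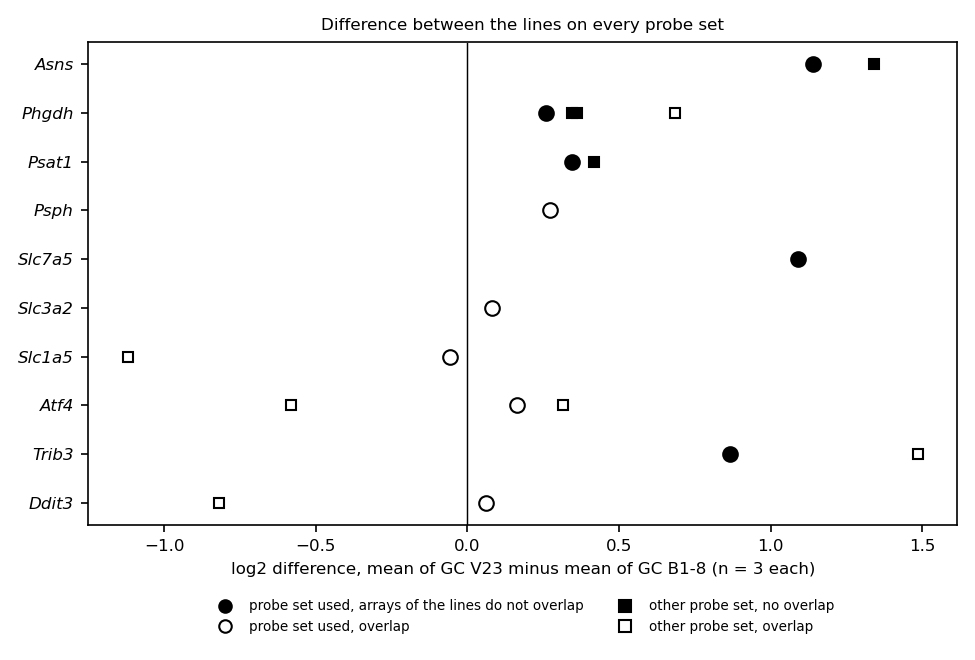
Difference between the lines (x axis: mean log2 signal of GC V23 minus GC B1-8, n = 3 each) on every single-symbol probe set of the 10 genes (y axis); circles are the probe sets used, squares the others, and filled symbols mark lines whose arrays do not overlap. Both Asns probe sets lie above 1, at 1.14 and 1.34, and all symbols below 0 are open.

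The rest of the pathway was followed in 5 lists. Among other enzymes of amino acid synthesis and interconversion, 13 of 18 tested genes rose and 1 fell in GC cells (mean of both lines over naive), beside 20.5% and 21.0% of all tested genes, with a median of 0.61 beside 0.06. Bcat1, the cytosolic aminotransferase of branched-chain amino acids, rose by 2.89 ± 0.21 (adjusted p = 1.36e-05), from 7.15 ± 0.49 (SD) in naive to 9.64 ± 0.22 in B1-8 and 10.45 ± 0.10 in V23 cells. Shmt2, which converts serine to glycine in mitochondria, rose by 1.01 ± 0.08 (adjusted p = 1.78e-05), from 11.14 ± 0.08 to 11.89 ± 0.09 and 12.40 ± 0.10. The arrays of the 3 groups did not overlap for either gene. The Shmt2 probe set is of the _x_at kind, which can share sequence with other genes. Shmt1, the cytosolic counterpart of Shmt2, rose by 0.98 ± 0.12 (adjusted p = 0.000201) and read 9.56 and 9.55 in B1-8 and V23 cells, and Got2, the mitochondrial aspartate aminotransferase, rose by 1.14 ± 0.10 (adjusted p = 3.97e-05). Arg2, an arginase, read 4.77 ± 0.93, 6.32 ± 0.41 and 5.51 ± 0.29 in naive, B1-8 and V23 cells, and its call (adjusted p = 0.0463) was lost in 7 of the 10 fits that left out 1 array, with adjusted p up to 0.0903.

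Of the other transporters 7 of 21 rose and 7 fell, with a median of 0.22; all tested genes also divided about equally, at 20.5% and 21.0%. Among the 4 with the smallest p, Slc25a13, an aspartate-glutamate carrier, rose by 1.70 ± 0.16 (adjusted p = 4.55e-05). Slc36a4, a proton-coupled transporter, rose by 1.59 ± 0.12 (2.06e-05) and Slc7a3, a cationic amino acid transporter, by 1.06 ± 0.12 (0.000126). Slc38a9, the lysosomal arginine sensor of mTORC1, fell by 1.13 ± 0.13 (adjusted p = 0.000183). Slc1a4, which carries serine and alanine, did not pass the test in the mean of both lines (0.48 ± 0.22, adjusted p = 0.113) or in B1-8 cells (0.13 ± 0.25, adjusted p = 0.745) but rose in V23 cells (0.82 ± 0.25, adjusted p = 0.0326); it read 7.76 ± 0.24 (SD) in V23 cells, with no overlap with the 7.07 ± 0.31 of B1-8 cells.

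Of the other genes of the ATF4 response 5 of 14 rose and 4 fell, beside 20.5% and 21.0% of all tested genes, with a median of -0.32. The transcription factor Atf5 rose by 1.00 ± 0.08 (adjusted p = 2.38e-05), Mthfd2, a mitochondrial folate enzyme, by 1.33 ± 0.16 (0.000189) and Eif4ebp1, a translation repressor that mTORC1 inactivates, by 0.67 ± 0.11 (0.00104). All 3 read higher on every V23 than on every B1-8 array, by 0.40, 0.34 and 0.37. Ddit4, a stress-induced inhibitor of mTORC1, fell by 1.40 ± 0.14 (adjusted p = 7.97e-05), from 12.16 ± 0.21 (SD) in naive to 10.93 ± 0.22 in B1-8 and 10.58 ± 0.25 in V23 cells. Vldlr, a lipoprotein receptor, was at -0.37 ± 0.34 (adjusted p = 0.428). The probe sets used for Eif4ebp1 and Vldlr are of the _x_at kind, which can share sequence with other genes.

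**Figure D4:**
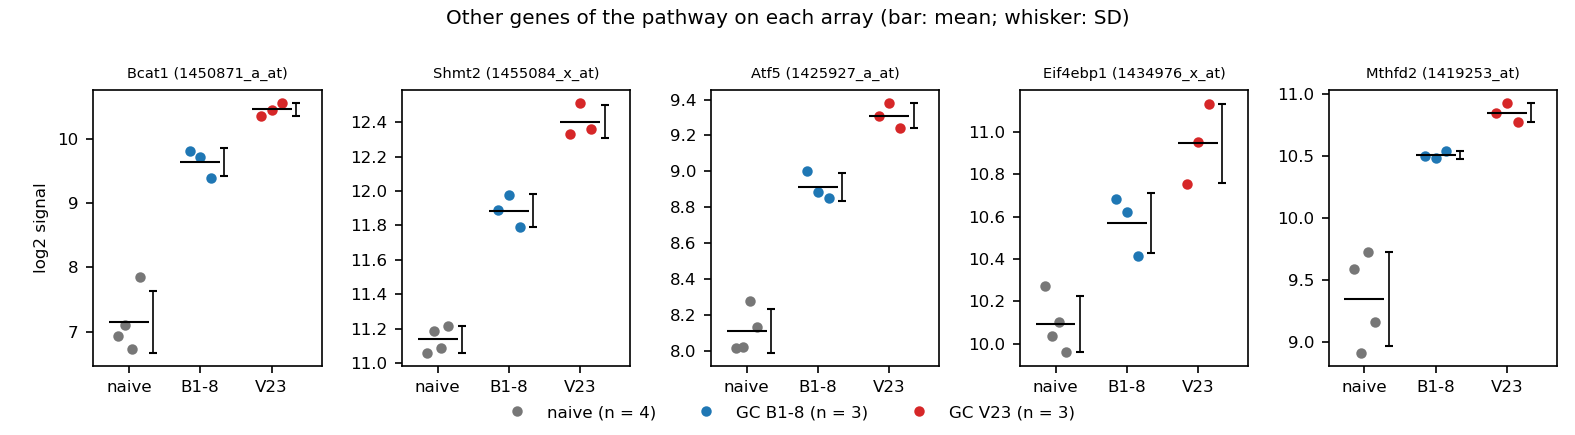
Log2 signal (y axis) of Bcat1, Shmt2, Atf5, Eif4ebp1 and Mthfd2 on each array, by group (x axis: 4 naive, 3 GC B1-8 and 3 GC V23 arrays); bars are means and whiskers SDs. In each gene shown the V23 arrays lie above the B1-8 arrays and these above the naive arrays. Only named genes with this order are shown. Among the other named genes, the lines overlap for Got2, Shmt1, Slc36a4 and Slc25a13. Arg2, Eif2ak3, Impact and Sesn3 read higher on every B1-8 than on every V23 array.

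In the list of the kinases that phosphorylate eIF2 alpha and their regulators, 3 of 8 genes rose and 4 fell, beside 20.5% and 21.0% of all tested genes. Eif2ak4, which encodes GCN2, fell by 0.56 ± 0.11 (adjusted p = 0.00316), and Impact, an inhibitor of GCN2, fell by 1.00 ± 0.09 (3.4e-05). Eif2ak2, the interferon-induced kinase PKR, fell by 1.49 ± 0.18 (adjusted p = 0.000208). Eif2ak1, the haem-regulated kinase, rose by 0.78 ± 0.12 (adjusted p = 0.000804) on the probe set used, but averaging its probe sets gave 0.03 (adjusted p = 0.901). Eif2ak3, the endoplasmic reticulum kinase PERK, rose by 0.32 ± 0.07 in the mean of both lines (adjusted p = 0.0052) and by 0.48 ± 0.08 in B1-8 cells (0.00204), and was at 0.17 ± 0.08 in V23 cells (0.151). Eif2ak3 read higher on every B1-8 than on every V23 array, by 0.32; its call was lost when its probe sets were averaged (Eif2ak3 at 0.36, adjusted p = 0.0699) and with quantile normalization (0.16, adjusted p = 0.0985).

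In the list of amino acid sensing by mTORC1, 5 of 20 genes rose and 6 fell, shares near the 20.5% and 21.0% of all tested genes, and the median was -0.06. Sestrins, which can inhibit mTORC1, were among the lower genes. Sesn1 was lower by 1.53 ± 0.21 (2.88-fold, adjusted p = 0.000483) and Sesn3 by 0.66 ± 0.08 (1.58-fold, adjusted p = 0.000164). Lamtor1, which anchors the lysosomal Ragulator complex, rose by 1.26 ± 0.17 (adjusted p = 0.000469) and Sar1b, a small GTPase that binds leucine, by 0.75 ± 0.07 (4.1e-05). Castor1, an arginine sensor, was at -0.21 ± 0.34 (adjusted p = 0.667).

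**Figure D5:**
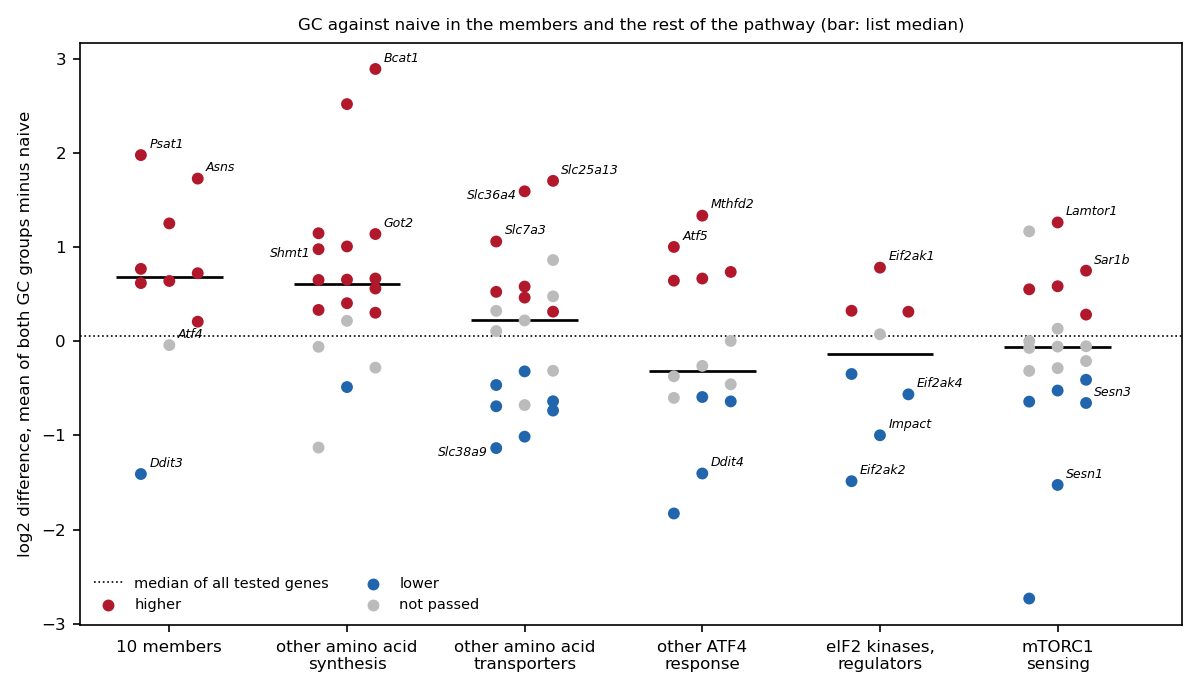
Log2 difference of the mean of both GC groups from naive (y axis) for each tested gene of the 10 members and of 5 further lists (x axis); red passed the test as higher, blue as lower, grey did not pass, bars are list medians and the dotted line is the median of all tested genes. The members (0.68) and the other synthesis enzymes (0.61) have medians above the 0.06 of all genes, and the remaining medians lie between -0.32 and 0.22.

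The genes whose pattern was most like that of Asns over the 10 arrays were found by Pearson correlation over all tested genes, as a description that mainly reflects the differences between the 3 groups. The nearest was Shmt2 (r = 0.984), followed by Cse1l, a nuclear export factor (0.981), the tRNA synthetases Rars (0.981) and Mars1 (0.980), and Ndufb5, a subunit of respiratory complex I (0.976). Rars read 11.10, 11.45 and 11.71 and Mars1 10.41, 10.88 and 11.18 as means in naive, B1-8 and V23 cells. Of the 10 genes, Phgdh (0.975), Slc7a5 (0.955), Psph (0.943) and Psat1 (0.936) followed most closely, while Atf4 was at 0.12 and Ddit3 at -0.83. Over the 6 GC arrays alone, the nearest genes were Dab2ip, Dgkeos, Vps37b, G3bp2 and Polr2d, with r between 0.989 and 0.994. Among them Vps37b, a subunit of the ESCRT-I sorting complex, read 9.29 ± 0.31 (SD) in naive, 7.36 ± 0.04 in B1-8 and 8.32 ± 0.06 in V23 cells.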

How the data were processed

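The authors deposited log2 signals per probe set from Affymetrix mouse arrays, 1 array for each of 10 samples. The submitters' processing notes name GCRMA, with no version, but the values have another form: after trimming 2% at each end the mean of the unlogged signals is 500 on every array, as with MAS5 signals scaled to a common target. Such signals have no shared quantiles and are noisy when dim. They were used as deposited; the number of arrays limits the precision.

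Of 45101 probe sets, 34958 name 1 gene, 932 several and 9211 none. Per gene, the brightest probe set on average that names it alone was kept. Genes above log2 4 on at least 3 arrays entered limma (version 3.58.1, R 4.3.3; 1 model of the 3 group means, two-sided, Benjamini-Hochberg over 17204 genes, threshold 0.05). The model left 7 residual degrees of freedom, to which moderation added 1.46. The fit was tested on simulated data. The members and lists were chosen with earlier results of these data known. Beyond the 10 members, the text names from each list the 4 genes with the smallest p and the further gene with the largest line difference, and the 5 genes most like Asns. Of the 88 genes in the 5 further lists, 7 lacked a probe set of their own and were not analysed here. Over 9 same-numbered pairs of arrays, deviations from the group means correlated at -0.02 to 0.07. No pairing by replicate number was seen in these values, and the main model has no block. Pairs with different numbers were not compared, so the check cannot exclude pairing. Alternatives covered the filter, the probe set, normalization, a floor, moderation, weights, the groups in the fit, the replicate block and arrays left out.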

Additional observations from a re-analysis of the deposited data

Results flagged for a closer look

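In 35 named genes, the naive group was searched for 1 array far from the others, a rule that chance meets in about 1 of 20 groups, and 3 genes met it. Asns read 9.08 on naive replicate 2, against 8.85 to 8.89 on the other naive arrays, and lay below every GC array there as well. Slc25a13 read 6.20 on naive replicate 3, against 6.79 to 6.87. Eif2ak2 read 9.18 on naive replicate 4, against 8.94 to 8.98.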

How the results depend on the processing

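The calls of Asns, Psat1, Phgdh, Psph and Ddit3 against naive kept their direction and their side of the threshold in each comparison with naive under every alternative run. With the mean of a gene's probe sets, 5 genes rose in V23 cells (8 otherwise) and 5 in the mean of both GC groups (8 otherwise), 0 of the eIF2 list rose by limma (3 otherwise; 2 at an unadjusted p under 0.05), and B1-8 minus V23 was -1.24 for Asns (-1.14 otherwise, and -1.19 to -1.07 with 1 array left out). Under the same setting the direction turned for Atf4 (0.39 in B1-8 and 0.37 in GC cells), Trib3 (-0.65 and -0.061), Slc1a5 (-0.50 in V23 and -0.21 in GC cells) and Vldlr (0.14). That Atf4 average includes the dim probe set 1439258_at, with means of 1.87 in naive, 3.44 in B1-8 and 2.86 in V23 cells. The Trib3 and Slc1a5 averages include the other probe sets given in the results. With quantile normalization Atf4 in V23 was at -0.14, Castor1 at 0.078, and 2 ATF4 response genes fell (4 otherwise). Median centring moved the median of all genes from 0.06 to 0.16 in GC cells and put Atf4 at 0.059. The synthesis list had 2 lower genes (1 otherwise) with a floor at log2 4, with trend and robust moderation and with array weights, and 1 to 2 with 1 array left out. With 1 array left out, Atf4 ranged from -0.097 to 0.0073 in GC cells (above 0 without V23 replicate 2) and from -0.063 to 0.14 in V23 cells (below 0 without V23 replicate 3), and Castor1 from -0.38 to 0.081 (above 0 without B1-8 replicate 1). The cause of these changes was not tested. With the replicate block, 5, 7 and 7 members rose in B1-8, V23 and both (6, 8 and 8 without it), as Slc7a5 in B1-8 (adjusted p = 0.0904) and Slc3a2 (0.138 and 0.145) were no longer called. The counts over all tested genes also varied between settings, for example from 3044 to 4165 higher in the mean of both lines (3521 in the main fit). How far the member counts followed them was not tested. Of 1245 values of single genes under alternatives, 1174 kept direction and threshold side or moved by less than 1 SD. Of the 50 calls lost with the direction kept, 41 were of Slc3a2 or Arg2. With the mean of a gene's probe sets, the calls of Slc1a5 (V23 and both lines) and Trib3 (both lines) were lost with a change of direction.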

Other observations

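Some genes of the lists outside the naming rule were picked after their values were seen, and no direction is claimed for them between the lines. Glul, which makes glutamine, read 11.79 ± 0.17 (SD, n = 4) in naive, 12.31 ± 0.21 in B1-8 and 11.70 ± 0.21 in V23 cells (n = 3 each), with every B1-8 array above every V23 array. Gpt2, the mitochondrial alanine aminotransferase, read 6.09 ± 0.28, 6.40 ± 0.32 and 7.09 ± 0.19, with every V23 array above every B1-8 array. Cth, which makes cysteine from cystathionine, rose in GC cells by 2.52 ± 0.32 (limma adjusted p = 0.000279), from 5.35 ± 0.77 in naive to 7.76 ± 0.24 and 7.98 ± 0.22. Slc7a11, the cystine importer and an ATF4 target, was at -0.68 ± 0.45 against naive (adjusted p = 0.272). Castor2, from the arginine sensor family, fell by 2.73 ± 0.53 (adjusted p = 0.003), and Atf3, a stress-induced transcription factor, fell by 1.83 ± 0.44 (adjusted p = 0.00988). Sesn2, the sestrin that ATF4 induces, fell by 0.59 ± 0.15 (adjusted p = 0.0116).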
